A study of Mus musculus with 2 samples.

Results

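The 10 genes described here encode the 3 TGF-beta ligands (*Tgfb1*, *Tgfb2*, *Tgfb3*), their 3 receptors (*Tgfbr1*, *Tgfbr2*, *Tgfbr3*) and the 4 latent TGF-beta binding proteins (*Ltbp1*, *Ltbp2*, *Ltbp3*, *Ltbp4*). They were taken by gene symbol from the 27998 genes of a single-cell RNA sequencing experiment on sorted Tomato+ dermal cells of small skin wounds, and all 10 were present. The control mice carried SM22rtTA; tetO-Cre; R26-Tomato, and the *SM22-SmoM2* mice carried SM22rtTA; tetO-Cre; R26-SmoM2/Tomato. In both genotypes the *SM22α* (*Tagln*) promoter drives rtTA, so that doxycycline turns on Cre and with it the red fluorescent protein Tomato. In *SM22-SmoM2* mice Cre also switches on SmoM2, a constitutively active Smoothened that turns on the Hedgehog (Hh) pathway. Mice were 4–5 weeks old and were given doxycycline (20 g/kg) from day 1 after wounding. Cells were isolated 3 days after the wounds had closed. According to the study's methods each library pooled wounds of several mice. There was 1 library per condition, so that differences between conditions, mice and libraries cannot be told apart and no test was run. The labels call the cells dermal, and fibroblasts, endothelial cells, Schwann cells, muscle cells and immune cells were all among the cells sorted as Tomato+. Driver activity and carry-over in the sort cannot be told apart here.

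TGF-beta is secreted in an inactive form, held by its own propeptide and tethered to the matrix by latent TGF-beta binding proteins. Once released, the dimer binds the type II receptor *Tgfbr2*, which phosphorylates the type I receptor *Tgfbr1*, and Smad proteins then carry the signal to the nucleus. In healing skin the pathway is known for turning fibroblasts into contractile, collagen-producing myofibroblasts, and in the hair follicle for signals that the dermal papilla sends to the epithelium. Not all members do the same: *Tgfbr3* (betaglycan) is a co-receptor that presents the ligand, above all TGF-beta2, and *Ltbp2* is a microfibril protein that does not bind latent TGF-beta.

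The control library held 2856 cells with a median of 8607.5 unique molecular identifiers (UMIs, each 1 counted transcript molecule) per cell, and the *SM22-SmoM2* library held 1792 cells with a median of 8837.5 UMIs. Clusters were named from marker lists, which gave 1036 control and 1095 *SM22-SmoM2* fibroblasts, 702 and 270 endothelial cells, 679 and 294 Schwann cells, 273 and 95 muscle cells (vascular smooth muscle and pericyte markers), and 82 and 32 immune cells. All 10 fibroblast markers were detected in fibroblasts, with a summed level of 75592 CPM (UMIs of a gene per 1000000 UMIs of those cells) in the control and 47788 CPM in the *SM22-SmoM2* library, against 1637 CPM (control endothelial cells) to 9324 CPM (*SM22-SmoM2* immune cells) in the other lineages. The barcodes of the cells could not be assigned from the files used here, so barcodes shared by both libraries were not counted. Several values differed between the libraries in fibroblasts and stand beside every fibroblast comparison given here. The summed level of 8 genes of dissociation stress was 3490 CPM in the control and 5153 CPM in the *SM22-SmoM2* library, and of the fibroblasts with a sex call 76.2% and 94.4% were male. Markers of other lineages were low in both, from 7.62 CPM (skeletal muscle) to 115 CPM (endothelial) in the control and from 0.965 CPM (melanocyte) to 92.4 CPM (endothelial) in the *SM22-SmoM2* library. The melanocyte markers differed most, with 11.4 CPM in the control and 3 of 5 at 0 in the *SM22-SmoM2* library. Fibroblasts had a median of 12721.5 UMIs per cell in the control and 10940 UMIs in the *SM22-SmoM2* library. The part of stress, sex, melanocyte markers and depth in the differences was not tested. Levels below are CPM of UMIs summed over the cells of a class, ranges in parentheses are 95% intervals of counting error only, and levels are compared between cells for 1 gene at a time, not between genes.

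The ligands were highest in different lineages, *Tgfb1* in immune cells and *Tgfb2* and *Tgfb3* in muscle cells, Schwann cells or fibroblasts. *Tgfb1* (chr7:25687002-25705077 of GRCm38, + strand), the ligand best known from wounds and immune regulation, was highest in immune cells, at 381 CPM (337–430) in the control and 328 CPM (272–393) in the *SM22-SmoM2* library. Its level was 167 and 122 CPM for the endothelium, 149 and 140 CPM for Schwann cells, 81.9 and 92.0 CPM for fibroblasts, and 70.5 and 78.0 CPM for muscle cells. Fibroblasts and muscle cells did not differ in *Tgfb1* beyond counting error in either library, nor did Schwann and endothelial cells of the *SM22-SmoM2* library.

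*Tgfb2* (chr1:186622792-186705989, − strand), the isoform that needs betaglycan to bind its receptors well, was highest in muscle cells (79.5 CPM, 67.3–93.4) and Schwann cells (68.4 CPM, 61.1–76.2) of the control library, which did not differ beyond counting error. In the *SM22-SmoM2* library it was highest in Schwann cells (82.7 CPM, 70.7–96.3), and muscle cells (41.7 CPM) and fibroblasts (48.4 CPM) did not differ from each other beyond counting error. *Tgfb3* (chr12:86056745-86079041, − strand), an isoform associated with scarless fetal healing, was highest in muscle cells of the control (75.3 CPM, 63.3–88.7) and in fibroblasts of the *SM22-SmoM2* library (61.0 CPM, 56.7–65.5). Endothelial cells held 6.34 and 4.63 CPM of *Tgfb3*. That is no more than the 7.62 and 5.92 CPM that free RNA would leave there, as estimated from the markers of the other lineages found in endothelial cells, and was read as background. The same held for *Tgfb2* in immune cells, where 4 UMIs were counted in each library (5.71 CPM in the control, against estimates of 13.7 CPM there and 11.4 CPM in the *SM22-SmoM2* library). *Tgfb3* overlaps *Ttll5* on the opposite strand, and the sources used here do not say whether strand was used in counting.

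Among the receptors, *Tgfbr2* (chr9:116084293-116175360, − strand) was highest in fibroblasts. These had 274 CPM (266–283) and 182 CPM (175–190), followed by endothelial cells with 162 and 108 CPM. Immune cells (54.3 and 105 CPM), Schwann cells (46.3 and 56.5 CPM) and muscle cells (41.6 and 78.0 CPM) were lower in the control. By level, the *SM22-SmoM2* order below fibroblasts was endothelial, immune, muscle and Schwann cells, and no neighbours in it differed beyond counting error. The intervals at its ends did not overlap, with 95.3–122 CPM in endothelial and 46.6–67.9 CPM in Schwann cells. With every cell thinned to 2500 UMIs, *Tgfbr2* was detected in 44.9% (41.8–48.0) of control and 35.5% (32.7–38.4) of *SM22-SmoM2* fibroblasts, and in 10.3% and 13.9% of Schwann cells. Without thinning the shares in fibroblasts were 87.0% and 73.0%.

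*Tgfbr1* (chr4:47353222-47414931, + strand), the type I kinase that signals to Smad2 and Smad3, was the flattest of the 3 receptors across lineages. It ranged from 20.7 CPM in control fibroblasts and Schwann cells to 55.7 CPM (39.6–76.1) in control immune cells, and from 23.1 CPM in fibroblasts to 58.0 CPM (35.9–88.6) in immune cells of the *SM22-SmoM2* library. No neighbours in the *SM22-SmoM2* order differed beyond counting error. *Tgfbr3* (chr5:107106570-107289629, − strand) was highest in endothelial cells, with 68.8 CPM (63.2–74.7) in the control and 75.7 CPM (65.0–87.6) in the *SM22-SmoM2* library. In the control library endothelial cells, fibroblasts (62.9 CPM) and Schwann cells (54.8 CPM) followed each other without a gap beyond counting error, whereas with SmoM2 fibroblasts (46.1 CPM) and Schwann cells (31.7 CPM) lay below endothelial cells.

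The latency proteins differed in where they were highest, with overlaps. *Ltbp1* (chr17:75005568-75392512, + strand), which tethers latent TGF-beta to fibronectin and fibrillin, was highest in fibroblasts, at 45.3 and 34.2 CPM, against 13.1 and 15.4 CPM in Schwann cells. Fibroblasts held 77.9% of its control and 88.9% of its *SM22-SmoM2* UMIs, beside 46.8% and 70.1% of the UMIs of all genes in the 5 lineages. *Ltbp4* (chr7:27305136-27337692, − strand), which besides binding latent TGF-beta1 is needed to assemble elastic fibres, was highest in endothelial cells, at 258 CPM (247–269) in the control and 151 CPM (136–168) in the *SM22-SmoM2* library. Schwann cells followed with 186 and 136 CPM, not beyond counting error below endothelial cells in the *SM22-SmoM2* library, and fibroblasts had 61.6 and 90.7 CPM. In immune cells *Ltbp4* was at 12.9 and 8.28 CPM, below the free RNA estimates of 34.7 and 26.9 CPM.

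*Ltbp3* (chr19:5740904-5758532, + strand), known for its part in bone and tooth growth, was at like levels in fibroblasts (43.3 and 29.6 CPM) and Schwann cells (46.8 and 29.2 CPM), which did not differ beyond counting error in either library. *Ltbp2* (chr12:84783212-84876532, − strand) was rare everywhere. Fibroblasts held 31 and 117 of its UMIs (2.27 CPM, 1.54–3.22, and 9.41 CPM, 7.78–11.3), Schwann cells 11 and 8, and no other lineage more than 4. In muscle cells of the *SM22-SmoM2* library *Ltbp2* had 0 UMIs, which allows up to 5.44 CPM at a limit of 3 UMIs. *Ltbp3* and *Ltbp2* each overlap another gene on the opposite strand, as does *Tgfb2*. *Ltbp1* and *Tgfbr3* overlap other annotated genes on their own strand.

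**Figure D1:**
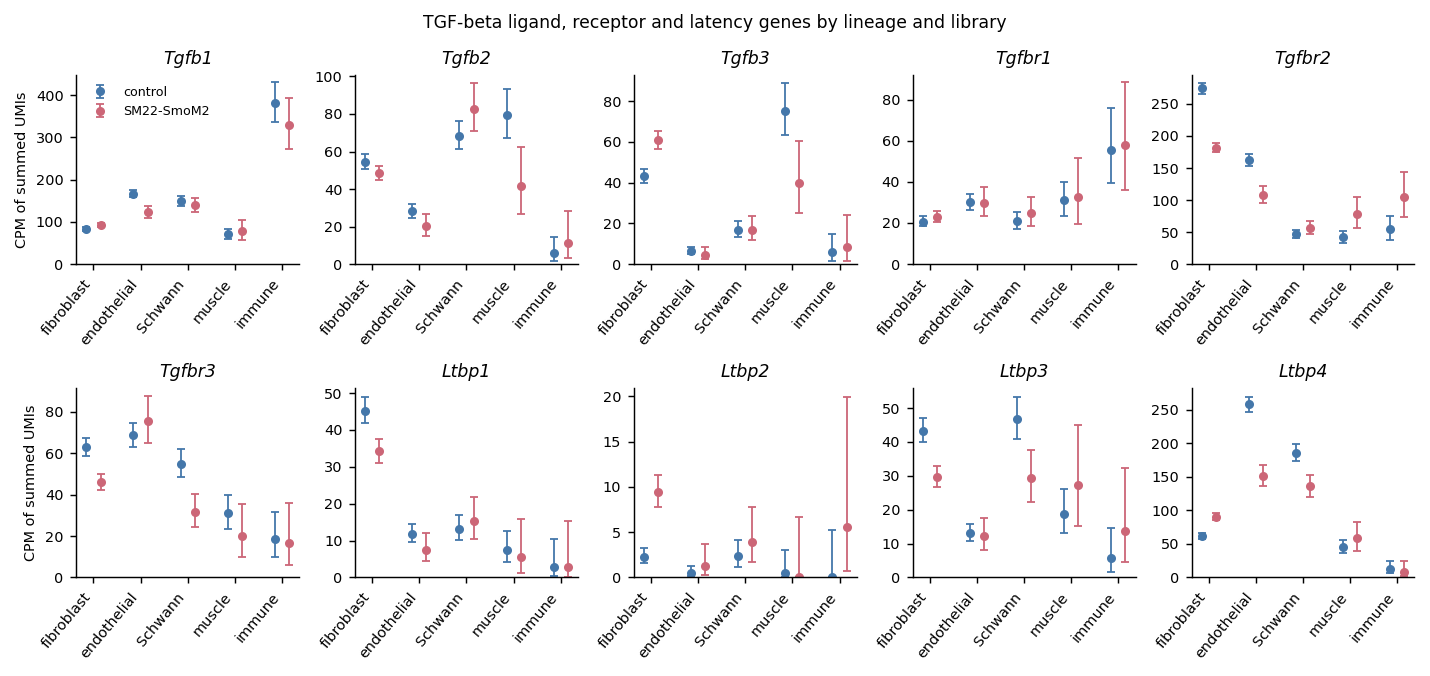
Level of each of the 10 genes in CPM of summed UMIs (vertical axes, from 0, a scale per gene) in 5 lineages of the control (blue) and *SM22-SmoM2* (red) library. Points are the 1 library of each condition and bars are exact Poisson 95% intervals of counting error only. *Tgfb1* was highest in immune cells, *Tgfbr2* in fibroblasts (274 and 182 CPM) and *Ltbp4* in endothelial cells (258 and 151 CPM).

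The comparison the design implies is that of *SM22-SmoM2* with control fibroblasts, the cells in which Hh target genes were raised. *Ptch1*, which encodes the Hh receptor, had 12.4 CPM without and 147 CPM with SmoM2, and the transcription factor gene *Gli1* had 5.64 and 33.1 CPM. Of the 10 TGF-beta genes, 1 (*Ltbp2*) was at least 1.5-fold higher, against 11.9% of the 11486 genes with at least 50 UMIs. 1 of the 10 (*Tgfbr2*) was at least 1.5-fold lower, against 12.2% of all genes. These shares are near the background, and the median log2 ratio of the 10 genes was −0.0042 beside −0.07 for all genes.

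No ligand passed 1.5-fold, and *Tgfb3* came nearest to it. *Tgfb1* had 81.9 CPM (77.2–86.9) in the control and 92.0 CPM (86.7–97.4) with SmoM2, a log2 ratio of 0.17 (0.05 to 0.29). *Tgfb2* had 54.4 CPM (50.6–58.5) and 48.4 CPM (44.6–52.5), a log2 ratio of −0.17 (−0.33 to −0.01). *Tgfb3* was the ligand with the widest gap, at 43.3 CPM (39.9–46.9) and 61.0 CPM (56.7–65.5), a log2 ratio of 0.49 (0.34 to 0.65). In the 2 sub-clusters that hold 50 or more cells from both libraries, *Tgfb3* lay on the other side of 0, with log2 ratios of −0.25 (−0.84 to 0.30) and −0.26 (−0.62 to 0.09) whose intervals include 0.

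The type II receptor and the co-receptor were lower, and a difference in the type I receptor was not detectable at this depth. *Tgfbr2* was 1.51-fold lower in *SM22-SmoM2* fibroblasts, a log2 ratio of −0.59 (−0.67 to −0.52), and *Tgfbr3* had a log2 ratio of −0.45 (−0.60 to −0.29). *Tgfbr1* had 20.7 CPM (18.3–23.2) and 23.1 CPM (20.5–25.9), a log2 ratio of 0.16 (−0.08 to 0.40) whose interval includes 0. The *Tgfbr2* value lies at the edge of the 1.5-fold limit and falls below it under several other settings, such as at −0.58 with 53 control cells kept that had been left out as mixed on 1 melanocyte marker. In the same 2 sub-clusters its log2 ratios were −0.48 (−0.73 to −0.24) and 0.18 (0.03 to 0.33), so that the lower level was not shared by them.

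The latency proteins went in both directions. *Ltbp2* was 4.14-fold higher in *SM22-SmoM2* fibroblasts, a log2 ratio of 2.05 (1.47 to 2.67), and *Ltbp4* was higher by 0.56 (0.43 to 0.69) on the log2 scale. *Ltbp1* was lower by a log2 ratio of −0.41 (−0.59 to −0.22) and *Ltbp3* by one of −0.55 (−0.74 to −0.36). With every cell thinned to 2500 UMIs, *Ltbp2* was seen in 0.386% (0.105–0.986) of control and 1.92% (1.19–2.92) of *SM22-SmoM2* fibroblasts, against 0.285% and 0.37% of endothelial cells.

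The promoters of the genes past 1.5-fold and of *Ltbp4* are shown because the data turn on these genes. RefSeq sequences of GRCm38.p6 were at hand for 12 promoters of 8 of the 10 genes, from 250 bases before to 50 bases after the start. Printed here are bases upstream of the start that the gene model does not cover, with each Smad box (CAGAC or its reverse complement GTCTG, both strands searched) in capitals. *Ltbp2* (chr12:84876533-84876741, − strand) held 2 Smad boxes there, *Tgfbr2* (chr9:116175364-116175613, − strand) 1, and the most upstream of 3 *Ltbp4* promoters (chr7:27337693-27337862, − strand) 0.
Ltbp2: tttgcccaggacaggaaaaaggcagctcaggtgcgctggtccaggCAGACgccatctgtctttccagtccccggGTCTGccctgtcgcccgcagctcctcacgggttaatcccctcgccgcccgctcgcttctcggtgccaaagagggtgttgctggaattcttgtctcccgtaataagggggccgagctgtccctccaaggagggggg
Tgfbr2: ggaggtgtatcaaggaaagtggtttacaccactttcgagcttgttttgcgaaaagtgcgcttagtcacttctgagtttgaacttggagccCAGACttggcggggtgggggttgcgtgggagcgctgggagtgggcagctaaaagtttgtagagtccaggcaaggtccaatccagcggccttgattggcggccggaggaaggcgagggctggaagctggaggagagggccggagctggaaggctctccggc
Ltbp4: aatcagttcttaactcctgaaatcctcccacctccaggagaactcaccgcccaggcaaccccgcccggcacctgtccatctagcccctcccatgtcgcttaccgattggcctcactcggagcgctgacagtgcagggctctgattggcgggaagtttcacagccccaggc
The Smad box was in 7 of the 12 promoters, and in 49.6% of all 32851 promoters of the same 300 bases. The Gli motif GACCACCCA, searched on both strands, was in 0 of the 12 and in 0.253% of all promoters, which says only that these letters are not in these windows. Such short matches describe the sequence and are not binding sites.

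**Figure D2:**
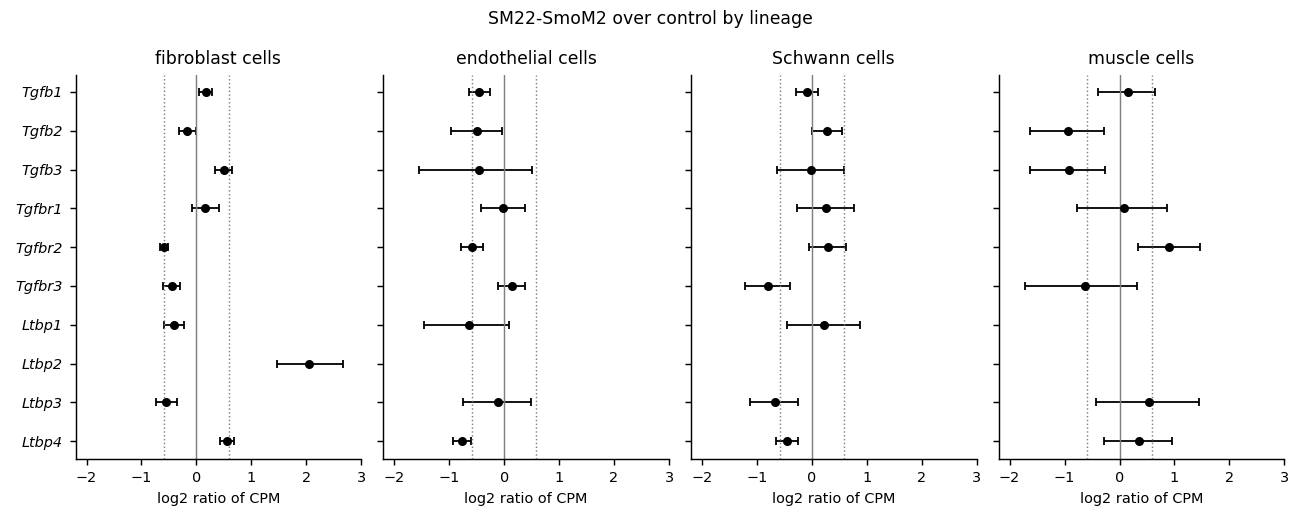
Log2 ratio of CPM, *SM22-SmoM2* over control (horizontal axes), for genes with at least 50 UMIs over both libraries in 4 lineages. Bars are exact 95% intervals of counting error only and dotted lines mark 1.5-fold. In fibroblasts *Ltbp2* stands at 2.05 and *Ltbp4* at 0.56, and in endothelial cells *Ltbp4* stands at −0.77.

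Fibroblasts were then divided by Hh activity. They were clustered again without the TGF-beta and Hh genes, and a sub-cluster was called Hh-active-like when at least 3 of the 5 Hh markers were raised in it. 57 of 1036 control and 766 of 1095 *SM22-SmoM2* fibroblasts were Hh-active-like, and 979 and 284 were other fibroblasts. A separate group of 45 *SM22-SmoM2* cells, with no control cell, was Hh-active II-like by a further list of 12 genes, and held *Alpl* at 354 CPM and *Lef1* at 128 CPM, genes of the dermal papilla and of skin condensates that were chosen after their values were seen. The other fibroblasts of the *SM22-SmoM2* library include 46 cycling cells whose Hh markers summed to 248 CPM.

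Within the *SM22-SmoM2* library *Ltbp4* stood out, with 27.6 CPM in other and 118 CPM in Hh-active-like fibroblasts, a log2 ratio of 2.09 (1.79 to 2.41). In the control library the levels were 53.3 and 243 CPM, a log2 ratio of 2.19 (1.92 to 2.45), although only 57 control cells were Hh-active-like. *Ltbp4* was uneven within the classes. In *SM22-SmoM2* sub-clusters with at least 40 cells it ranged from 43.2 to 221 CPM in Hh-active-like and from 11.5 to 56.2 CPM in other ones. The 221 CPM were in the sub-cluster led by *Cldn1*. Other control sub-clusters ranged from 13.7 to 109 CPM. *Ltbp2* was also higher in Hh-active-like cells of both libraries, from 4.51 to 11.3 CPM in *SM22-SmoM2* (log2 ratio 1.33, 0.55 to 2.19) and from 1.84 to 11.7 CPM in control fibroblasts (2.67, 1.21 to 3.93, from 24 and 7 UMIs). *Tgfbr2* was lower in Hh-active-like cells of both, at 253 and 157 CPM in *SM22-SmoM2* (−0.69, −0.81 to −0.57) and at 278 and 189 CPM in control fibroblasts (−0.56, −0.84 to −0.29). By sub-cluster the *SM22-SmoM2* classes overlapped. Other fibroblasts had 356 CPM of *Tgfbr2* in the sub-cluster led by *Mmp13*, but 148 CPM in that led by *Crabp1* and 170 CPM in the cycling one. Hh-active-like sub-clusters ranged from 89.4 to 215 CPM.

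Counted over the 10 genes in the *SM22-SmoM2* library, 4 (*Tgfb1*, *Tgfb3*, *Ltbp2*, *Ltbp4*) were at least 1.5-fold higher in Hh-active-like cells, against 16.6% of all genes, and 2 (*Tgfbr2*, *Tgfbr3*) were lower, against 13.2%. The median log2 ratio of the 10 was 0.46 beside −0.0032 for 9918 genes. In the control library 3 of 9 with at least 50 UMIs (*Tgfb1*, *Ltbp1*, *Ltbp4*) were higher, against 18.4%, and 0 of 9 were lower, against 15.4%, with medians of 0.39 for the 9 and 0.06 for 10135 genes. *Tgfb1* was higher by 0.65 (0.44 to 0.86) in the *SM22-SmoM2* and by 0.73 (0.38 to 1.06) in the control library. *Tgfb2* had 0.51 in the *SM22-SmoM2* library. Called led by *Hmox1* here are the 2 sub-clusters with this stress gene among their 10 leading genes, not always in first place. One starts with *Areg*, *Mmp13* and *Hmox1* (7 control and 196 *SM22-SmoM2* cells). The other starts with *Egfl6*, *Fam212a* and *Igfbp2* (2 and 137 cells), so leaving them out removes mostly *SM22-SmoM2* cells. Without these sub-clusters, a comparison added after the values were seen, the *SM22-SmoM2* value was −0.30 for *Tgfb1* and −1.95 for *Tgfb2*. *Tgfb3*, higher by 0.66 (0.40 to 0.92) in *SM22-SmoM2* cells, was at −0.05 (−0.69 to 0.53) in control cells, and *Tgfbr3* was at −0.66 (−0.91 to −0.41) and 0.06 (−0.44 to 0.52). With every cell thinned to 2500 UMIs the *SM22-SmoM2* value of *Tgfb3* was 0.21. Its level ranged from 9.21 to 132 CPM over Hh-active-like *SM22-SmoM2* sub-clusters with at least 40 cells. Over other such sub-clusters it ranged from 29.5 to 59.8 CPM.

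**Figure D3:**
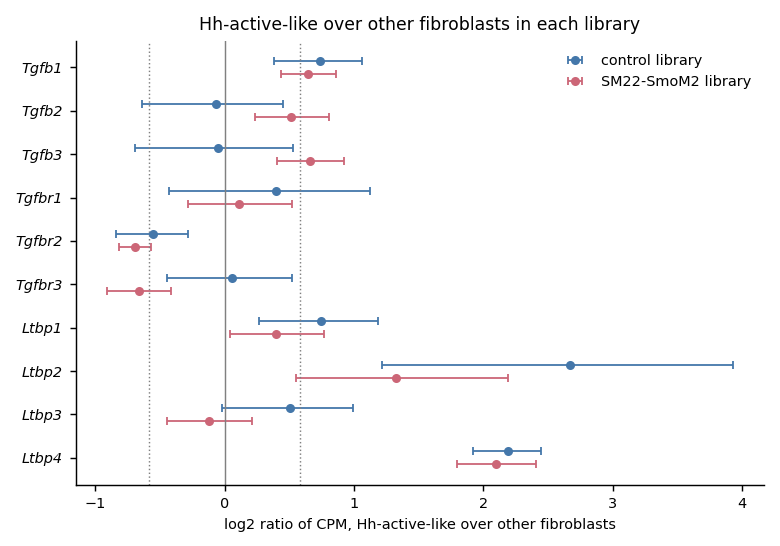
Log2 ratio of CPM, Hh-active-like over other fibroblasts (horizontal axis), in the control (blue, 57 over 979 cells) and *SM22-SmoM2* library (red, 766 over 284 cells). Bars are exact 95% intervals of counting error only and dotted lines mark 1.5-fold. *Ltbp4* stands at 2.19 and 2.09 and *Tgfbr2* at −0.56 and −0.69.

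The same class compared between libraries gave another picture than all fibroblasts together. *Ltbp4*, higher in *SM22-SmoM2* fibroblasts as a whole, was lower in both of the classes: other fibroblasts had 53.3 CPM without and 27.6 CPM with SmoM2 (log2 ratio −0.95, −1.27 to −0.64), and Hh-active-like fibroblasts had 243 and 118 CPM (−1.04, −1.29 to −0.78). *Tgfb1* was likewise lower in both, at −0.29 (−0.50 to −0.08) and −0.38 (−0.71 to −0.03), while its value over all fibroblasts was 0.17. *Ltbp2* was higher in other fibroblasts (1.29, 0.28 to 2.27), and in Hh-active-like fibroblasts its ratio was −0.05 (−1.15 to 1.30). *Tgfbr2* had −0.14 (−0.24 to −0.03) in other and −0.27 (−0.55 to 0.02) in Hh-active-like fibroblasts, both nearer 0 than its −0.59 over all fibroblasts. *Tgfb3* was at 0.01 (−0.26 to 0.27) in other and 0.72 (0.14 to 1.36) in Hh-active-like fibroblasts, where the control had 25 UMIs.

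The classes are not the same cells in both libraries. Of the 57 Hh-active-like control cells, 35 lay in the sub-cluster led by *Cldn1*, *Mest* and *Sfrp5*, which held 214 of the 766 such *SM22-SmoM2* cells. Within that sub-cluster *Ltbp4* stood at 323 CPM (266–388) in the 35 control cells and at 221 CPM (203–241) in the 214 *SM22-SmoM2* cells. Other control fibroblasts lay mostly in sub-clusters led by *Nov* and *Eln* (269 cells), *Crabp1* (261 cells) and *Mmp13* (246 cells), and other *SM22-SmoM2* fibroblasts in those led by *Mmp13* (132 cells) and *Crabp1* (99 cells). In the *Crabp1* and *Mmp13* sub-clusters, which hold 50 or more cells from both libraries, *Ltbp4* had log2 ratios of −0.26 (−1.24 to 0.64) and 0.42 (−0.17 to 1.00), and *Tgfb1* had 0.14 (−0.20 to 0.47) and −0.63 (−1.05 to −0.24).

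Of *SM22-SmoM2* fibroblasts, 9 sub-clusters had at least 40 cells, and each member had its own profile over them. *Tgfb2* ranged from 2.09 CPM (3 UMIs) in the *Egfl6*, *Penk* and *Igfbp2* sub-cluster to 158 CPM (143–175) in the sub-cluster led by *Areg*, *Mmp13* and *Hmox1*. That last sub-cluster of 196 cells was also highest in *Tgfb1* (178 CPM, 162–195), and *Hmox1* is a gene of oxidative stress. Its 8 dissociation stress genes summed to 7080 CPM, against 5153 CPM in all *SM22-SmoM2* fibroblasts. Without the sub-clusters led by *Hmox1*, *Tgfb2* had a log2 ratio of −1.32 and *Tgfb1* one of −0.43 between *SM22-SmoM2* and control fibroblasts, while *Ltbp2* (2.06), *Ltbp4* (0.62), *Tgfb3* (0.56) and *Ltbp3* (−0.57) stayed within the counting intervals of their values in all fibroblasts. *Tgfb2* was then past 1.5-fold, and *Tgfbr2*, at −0.41, was not.

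*Tgfb3* and *Ltbp4* shared their highest sub-cluster, the one led by *Cldn1*, *Mest* and *Sfrp5*, with 132 and 221 CPM. Their lowest ones were not shared: *Tgfb3* was at 9.21 CPM in the cycling *Egfl6* sub-cluster and *Ltbp4* at 11.5 CPM (6.28–19.3) in the *Crabp1* sub-cluster. *Ltbp2* was highest in the *Egfl6*, *Penk* and *Igfbp2* sub-cluster (23.7 CPM, from 34 UMIs). In the *Crabp1* sub-cluster it had 0 UMIs, which allows up to 2.46 CPM at a limit of 3 UMIs. The receptors *Tgfbr2* and *Tgfbr3* were both highest in the *Mmp13*, *Igfbp2* and *Mmp3* sub-cluster, with 356 and 80.2 CPM.

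The 45 Hh-active II-like cells had a pattern of their own. *Ltbp1* was at 233 CPM there, from 69 UMIs, while Hh-active-like cells had 31.6 CPM and other *SM22-SmoM2* fibroblasts 24.0 CPM, log2 ratios of 2.88 (2.48 to 3.27) and 3.28 (2.80 to 3.76). *Tgfbr1* was at 77.6 CPM, from 23 UMIs, against 22.2 CPM in Hh-active-like cells, a log2 ratio of 1.80 (1.11 to 2.43). *Tgfbr2*, the partner that activates it, was at 64.1 CPM, from 19 UMIs, against 157 CPM, a log2 ratio of −1.29 (−2.03 to −0.64). The receptors thus lay on opposite sides of the Hh-active-like level. These cells had a median of 4425 UMIs, against 10599.5 in Hh-active-like cells, and their 8 stress genes summed to 11067 CPM. Whether depth or stress plays a part was not tested.

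**Figure D4:**
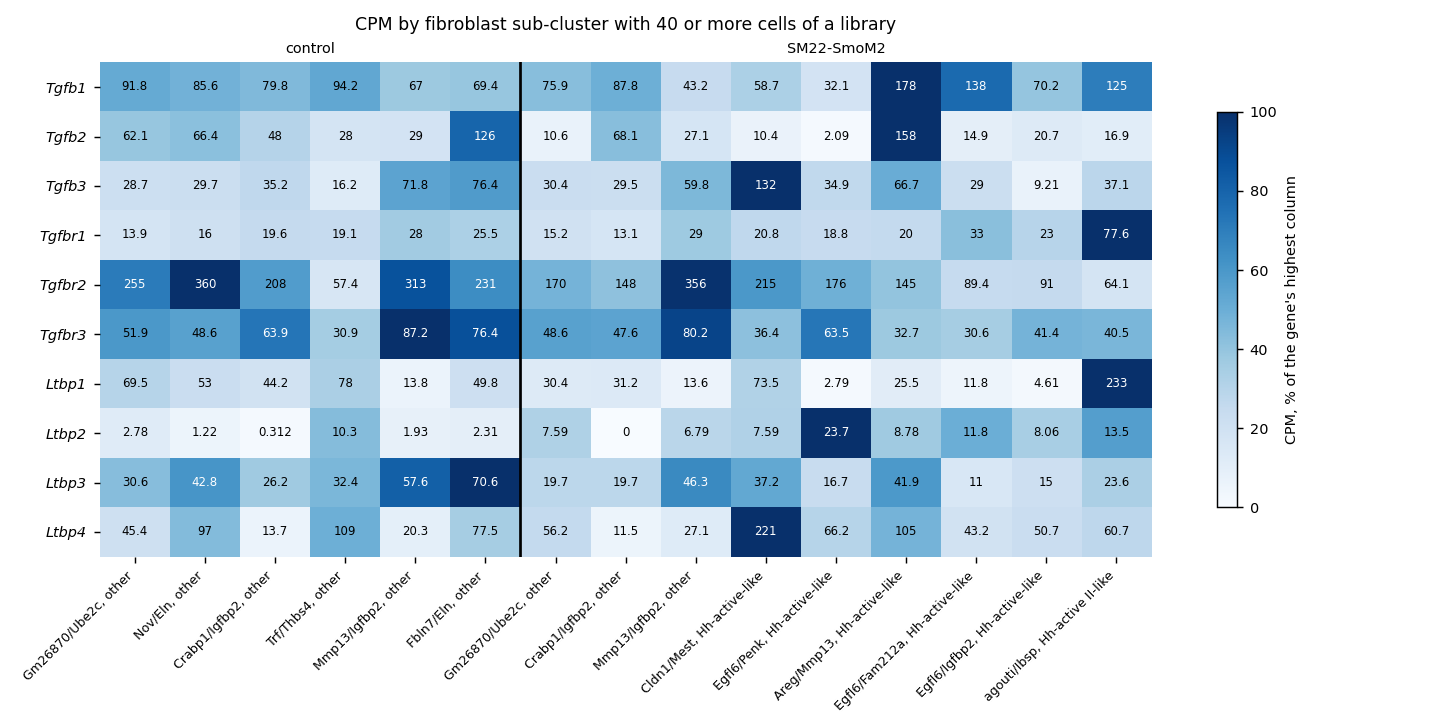
CPM of each of the 10 genes (rows) in fibroblast sub-clusters with at least 40 cells of a library (columns, named by leading genes and class), control on the left and *SM22-SmoM2* on the right. Printed numbers are CPM and the colour is the percent of the gene's highest column. *Tgfb2* is highest in the *Areg* and *Mmp13* column (158 CPM), *Ltbp4* in the *Cldn1* and *Mest* column (221 CPM) and *Ltbp1* in the last, Hh-active II-like column (233 CPM).

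*Ltbp4* was 1.71-fold lower in *SM22-SmoM2* endothelial cells, 258 CPM (247–269) against 151 CPM (136–168), a log2 ratio of −0.77 (−0.94 to −0.61). Fibroblasts had 0.56 all together and −0.95 and −1.04 within the classes, which hold different sub-clusters in the 2 libraries. In the 2 sub-clusters with 50 or more cells from both libraries they had −0.26 (−1.24 to 0.64) and 0.42 (−0.17 to 1.00). *Ltbp4* was lower in each of the 4 endothelial clusters, with log2 ratios of −0.78, −0.77, −0.92 and −0.20. The interval of the last (−0.50 to 0.10), in the cluster with *Selp* among its leading genes, includes 0. *Tgfbr2* was at 162 CPM (154–171) and 108 CPM (95.3–122), a log2 ratio of −0.59 (−0.79 to −0.39), and was lower in all 4 clusters too (−0.50, −0.58, −0.36 and −0.20). The intervals of −0.36 (−0.79 to 0.04) and −0.20 (−0.65 to 0.22) include 0. *Tgfb1* was at 167 CPM (158–176) and 122 CPM (109–137), a log2 ratio of −0.45 (−0.64 to −0.27). *Tgfbr3* was at 68.8 and 75.7 CPM, a log2 ratio of 0.14 (−0.11 to 0.38). In all, 0 of 9 genes with at least 50 UMIs were at least 1.5-fold higher, against 3.17% of all genes, and 3 of 9 (*Tgfbr2*, *Ltbp1*, *Ltbp4*) were lower, against 6.41%. The interval of *Ltbp1* (97 and 18 UMIs, −0.64, −1.46 to 0.09) includes 0, and *Tgfbr2* lies at the edge of the 1.5-fold limit. With every cell thinned to 2500 UMIs the values were −0.32 for *Tgfbr2*, 0.13 for *Ltbp1* and −0.53 for *Ltbp4*. The median of the 9 was −0.46 beside −0.08 for 9952 genes.

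In Schwann cells, the glia of skin nerves, *Tgfbr3* and *Ltbp3* were lower in the *SM22-SmoM2* library. *Tgfbr3* had 54.8 CPM (48.3–61.9) and 31.7 CPM (24.4–40.5), a log2 ratio of −0.79 (−1.21 to −0.39). *Ltbp3* had 46.8 CPM (40.8–53.4) and 29.2 CPM (22.3–37.7), a log2 ratio of −0.68 (−1.12 to −0.26). Both were lower in each of the 4 Schwann clusters, though the interval excluded 0 in only 2 of them for *Tgfbr3* and in none for *Ltbp3*. 0 of 9 genes were at least 1.5-fold higher, against 4.47%, and 2 of 9 were lower, against 7.79%, with medians of −0.0072 for the 9 and −0.08 for 8614 genes. *Ltbp4* was at 186 and 136 CPM, a log2 ratio of −0.45 (−0.66 to −0.26), the same side of 0 as in endothelial cells.

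Muscle cells were few, and their intervals are wide. *Tgfb2* had 79.5 CPM (67.3–93.4) and 41.7 CPM (26.4–62.6), a log2 ratio of −0.93 (−1.63 to −0.29), and *Tgfb3* had 75.3 CPM (63.3–88.7) and 39.9 CPM (25.0–60.4), a log2 ratio of −0.92 (−1.63 to −0.26). With every cell thinned to 2500 UMIs the *Tgfb3* value was −0.10. *Tgfbr2* was higher, at 41.6 CPM (32.9–52.0) and 78.0 CPM (56.5–105), a log2 ratio of 0.91 (0.33 to 1.46), with free RNA estimates of 20.3 and 17.8 CPM, and its value was 0.30 with the mean of per-cell CPM. 1 of 8 genes was at least 1.5-fold higher, against 4.48%, and 3 of 8 (*Tgfb2*, *Tgfb3*, *Tgfbr3*) were lower, against 11.6%. *Tgfbr3* had only 58 and 11 UMIs, with an interval from −1.71 to 0.31. The medians were 0.11 for the 8 and −0.10 for 5864 genes. In immune cells *Tgfbr2* had 38 UMIs in each library, 54.3 and 105 CPM, with free RNA estimates of 35.3 and 43.4 CPM. *Tgfb1* had a log2 ratio of −0.22 (−0.54 to 0.10) there.

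The pathway around these genes was described in fibroblasts by lists of other genes, of which 84 of 91 had at least 50 UMIs. Of the 84, 13 were at least 1.5-fold higher and 27 were at least 1.5-fold lower in *SM22-SmoM2* fibroblasts, and the median log2 ratio was −0.41. Of all genes 11.9% were higher and 12.2% lower, with a median of −0.07, and each count below is to be read against these shares. These ratios pool the fibroblast classes, whose shares of cells differ between the libraries, and the part this plays was not tested. Of the matrix anchors and other latency proteins, 1 of 7 was higher and 5 of 7 were lower, with a median of −0.73. The lower ones were *Eln* (elastin, 298 and 46.6 CPM, −2.68), *Fn1* (fibronectin, −1.53), *Fbn1* (fibrillin-1, −0.94), *Emilin1* (−0.73) and *Fbln5* (−0.71), and the higher one was *Fbn2* (fibrillin-2, 130 and 198 CPM, 0.61). Of the activators of latent TGF-beta, 0 of 13 were higher and 7 of 13 were lower, with a median of −0.66: these were led by the proteases *Plau* (−1.62, from 81 and 24 UMIs), *Mmp2* (−1.09), *Plat* (413 and 207 CPM) and *Mmp14* (−0.97), the integrin *Itgb3* (−1.12) and the transglutaminase *Tgm2* (−1.23).

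Of the ligand traps and accessory receptors, 0 of 11 were higher and 4 of 11 were lower, with a median of −0.57. These were *Dcn* (decorin, −1.27), *Cd44* (−1.11), *Aspn* (asporin, −1.01) and *Acvrl1* (−0.59). Within the classes *Dcn* was lower in both, at 7258 and 3991 CPM in other and 7103 and 2686 CPM in Hh-active-like fibroblasts. *Aspn* had 2223 and 1916 CPM in other and 569 and 758 CPM in Hh-active-like fibroblasts. *Cd44* had 384 and 90.5 CPM in other and 159 and 202 CPM in Hh-active-like fibroblasts. Of the activins and related ligands, *Inhba*, which encodes the activin A subunit, was higher (63.7 and 118 CPM, 0.89), *Inhbb* (−1.08) and *Gdf15* (−0.61) were lower, and 6 of 9 did not pass 1.5-fold. *Inhba* is also on the list that names Hh-active II-like cells, where it had 685 CPM. Without and with SmoM2 it had 64.4 and 34.9 CPM in other and 48.6 and 132 CPM in Hh-active-like fibroblasts.

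Among Smad proteins and their regulators, 5 of 16 were higher and 0 of 16 were lower, with a median of 0.07. The 5 were *Tgif2* (9.89 and 22.8 CPM, 1.21), *Smad6* (0.92, from 33 and 57 UMIs), *Smad7* (56.5 and 94.2 CPM, 0.74), *Tgif1* (0.71) and *Skil* (0.70), which all encode inhibitors of Smad signalling. Other inhibitors on the list did not pass 1.5-fold, among them *Smurf2* (−0.47), *Ski* (−0.40) and *Ppm1a* (−0.24). In other fibroblasts *Smad7* had 56.0 CPM without and 42.5 CPM with SmoM2, and *Skil* had 74.5 and 54.9 CPM. In Hh-active-like fibroblasts both went the other way, *Smad7* with 67.0 and 110 CPM and *Skil* with 82.0 and 144 CPM. Without the sub-clusters led by *Hmox1* the list's median was −0.08. Of genes known as TGF-beta targets, 8 of 32 were higher and 10 of 32 were lower, with a median of −0.20. *Tgfbi* (390 and 55.6 CPM, −2.81), *Fn1* (−1.53), *Cthrc1* (−1.34) and *Postn* (4255 and 1912 CPM, −1.15) were lower. They were also lower within each class, though *Cthrc1* by less. Without and with SmoM2, *Cthrc1* had 3377 and 2756 CPM in other and 827 and 731 CPM in Hh-active-like fibroblasts. *Postn* had 4309 and 3901 CPM in other and 3076 and 1127 CPM in Hh-active-like fibroblasts. *Tgfbi* had 395 and 89.9 CPM in other and 288 and 41.0 CPM in Hh-active-like fibroblasts. Not every lower target was lower within both classes. *Col3a1* (−0.63) had 19892 and 21231 CPM in other and 15281 and 9506 CPM in Hh-active-like fibroblasts. *Cdkn1a* (110 and 378 CPM, 1.79), a cell cycle inhibitor, was among those that were higher. Many of these targets answer to other signals too, and *Junb*, at 0.93 and named for this after its value was seen, is also on the list of dissociation stress. Without the sub-clusters led by *Hmox1*, 6 of the pathway genes were higher and 27 lower.

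**Figure D5:**
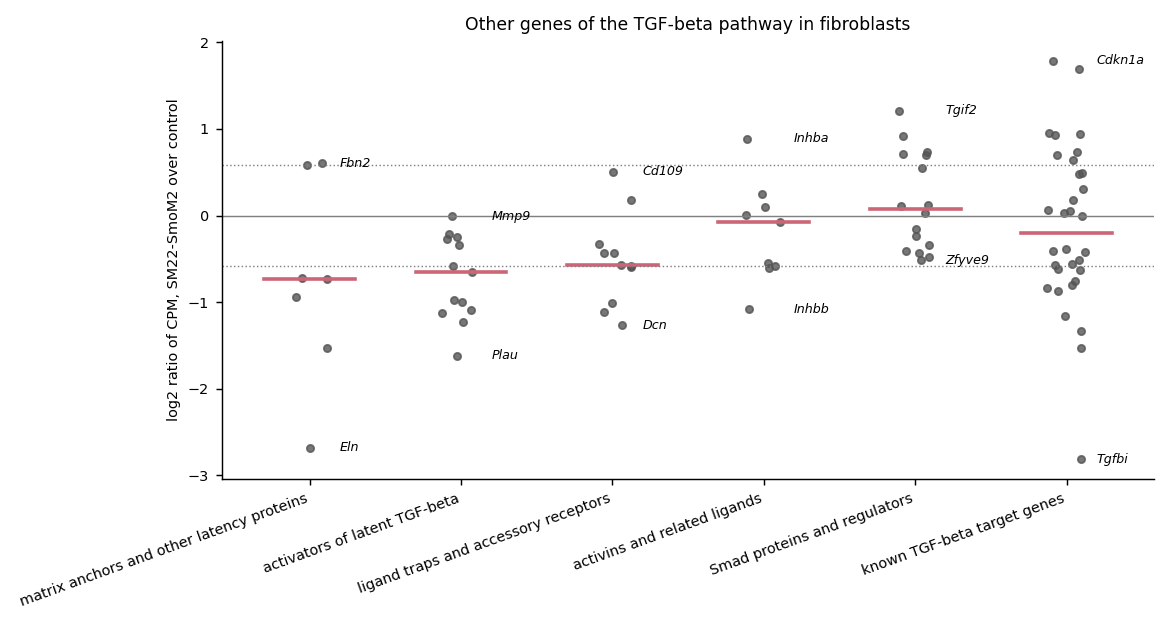
Log2 ratio of CPM, *SM22-SmoM2* over control fibroblasts (vertical axis), for the 84 genes with at least 50 UMIs in 6 lists around the TGF-beta pathway (4 genes are on 2 lists each and drawn in both). Red lines are list medians, dotted lines mark 1.5-fold, and the lowest and highest gene of each list is named. The medians of the anchors, activators and traps lie between −0.73 and −0.57, and that of the Smad list at 0.07.

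The genes whose pattern over the 18 clusters with at least 50 cells was most like that of each member were found by Pearson's r of log2(CPM + 10), among 10687 genes. The clusters share 2 libraries and differ in depth, so r is a description. *Ccl27a* and *Fam65b* were among the 3 genes most like *Ltbp2*. *Ltbp4* was most like *Prkce* (0.90), *Utrn* and *Mbd1*, *Ltbp1* like *Nova1* (0.87), *F2rl1* and *Dap*, and *Ltbp3* like *Angptl4* (0.90), *F3* and *Adamtsl1*. Of the receptors, *Tgfbr2* was most like *Gstt3* (0.88), *Tnfrsf11b* and *Cdon*, *Tgfbr1* like *Mxd1* (0.87), *Gdap10* and *Dedd2*, and *Tgfbr3* like *Guk1* (0.77), *Zfp462* and *Trove2*. Of the ligands, *Tgfb1* was most like *Mapkapk2* (0.90), *Grb2* and *Sdcbp*, *Tgfb3* like *Smarca1* (0.90), *Irs1* and *Dact1*, and *Tgfb2* like *Vasn* (0.75), which encodes a TGF-beta trap, *Fjx1* and *Ercc8*.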

How the data were processed

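The authors sorted Tomato+ dermal cells, made 10x Chromium v2 libraries and counted UMIs with Cell Ranger against mm10 (GRCm38). What they deposited are raw UMI counts, whole numbers for each gene in each cell. Versions of these tools are not given in the sources used here. The incubation in 20 mM EDTA lasted 1 h per the labels, and the paper's methods give a shorter time. The deposited barcodes are those of the kit, not of the cells, and were left aside. In the cells kept after the filter below, counts per cell ranged from 3128 to 65167 UMIs in the control and from 2538 to 38806 UMIs in the *SM22-SmoM2* library.

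Cells with more than 10% mitochondrial UMIs were left out (22 control, 10 *SM22-SmoM2*), and no doublets were removed: Scrublet marked 5 (0.175%) and 11 (0.614%) cells. After scaling each cell to 10000 counts, k-means (scikit-learn 1.9.0, Python 3.11.15, 50 starts, K = 20, and K = 15 for fibroblasts) was run on 20 principal components from 2000 variable genes. The 10 genes, the pathway lists and Hh genes were left out of clustering, except those that are lineage markers (such as *Col1a1*, *Lox* and *Dcn*). A lineage name needed 3 markers with 10 CPM and 1.5 times the median over clusters. Of 15 fibroblast sub-clusters, 3 (68 control, 5 *SM22-SmoM2* cells) whose leading genes held more markers of another lineage were left out as mixed (53 of the 68 on 1 melanocyte marker, in a sub-cluster led by *Mmp3*, *C4b* and *Wisp2*), as were 16 and 1 keratinocyte-like cells from all comparisons.

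UMIs were summed per class and library. CPM carry exact Poisson, ratios exact conditional and shares exact Clopper-Pearson 95% intervals, all for counting error only. The limits were 50 UMIs over both groups and 1.5-fold. Where 1 side had 0 UMIs the ratio used 3 UMIs in its place, and none was taken if both sides had at most 3. The ratios and their intervals were tried on counts simulated from the Poisson model that the intervals assume. The simulation held no differences between mice, cells or libraries, so it says nothing about these. *Ltbp4* has 2 IDs in the gene list, summed here (ENSMUSG00000040488 and ENSMUSG00000108715, the latter with 0 UMIs). The members, lists and limits were chosen with earlier results of these data known. Named were all 10 members, of each pathway list up to 6 genes past 1.5-fold, largest first, and the 3 genes most like each member. A few genes that these rules name are not reported here. *Alpl*, *Lef1*, *Junb*, *Ski*, *Smurf2*, *Ppm1a*, *Col3a1*, *Ptch1* and *Gli1* were added after their values were seen. Positions are those of GENCODE M21 (27645 of 27998 IDs matched). Sex was called from Y-linked and *Xist* UMIs. Free RNA was estimated from the share of other lineages' marker levels found in a lineage. Alternatives changed the filter, doublets, clustering, K, clustering genes, thinning, weighting, centring, sexes, sub-clusters and limits.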

Additional observations from a re-analysis of the deposited data

Results flagged for a closer look

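For 4 of the 10 genes the *SM22-SmoM2* over control ratio lay on opposite sides of 0 in 2 lineages, with both counting intervals beyond 0. How many of all genes meet the same rule was not counted, so this count has no background to be read against. The differences between lineages were not tested, since each condition is 1 library. *Ltbp4* had a log2 ratio of 0.56 in fibroblasts, −0.77 in endothelial cells and −0.45 in Schwann cells, and within the fibroblast classes it had −0.95 (other) and −1.04 (Hh-active-like). *Tgfb1* had 0.17 in fibroblasts and −0.45 in endothelial cells, and within the classes it had −0.29 (other) and −0.38 (Hh-active-like). The classes hold different sub-clusters in the 2 libraries. In the 2 fibroblast sub-clusters with 50 or more cells from both libraries, *Ltbp4* had −0.26 (−1.24 to 0.64) and 0.42 (−0.17 to 1.00). There *Tgfb1* had 0.14 (−0.20 to 0.47) and −0.63 (−1.05 to −0.24). Without the sub-clusters led by *Hmox1* the fibroblast value of *Tgfb1* was −0.43. *Tgfb3* had 0.49 in fibroblasts and −0.92 in muscle cells, where it had −0.10 with every cell thinned to 2500 UMIs, and it had −0.26 over the fibroblast sub-clusters with 50 or more cells from both libraries. *Tgfbr2* had −0.59 in fibroblasts and −0.59 in endothelial cells, against 0.91 in muscle cells and 0.95 in immune cells, the last from 38 UMIs in each library. Free RNA estimates of *Tgfbr2* in immune cells were 35.3 CPM beside a level of 54.3 CPM in the control. In the *SM22-SmoM2* library they were 43.4 CPM beside 105 CPM.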

How the results depend on the processing

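No paired analysis was possible because each condition is 1 library without replicate numbers. For the same reason no replicate could be left out, and the limit of every comparison is 1 library per condition, with few UMIs for *Ltbp2* and in muscle and immune cells. Of the fibroblast ratios recomputed under other settings, 119 stayed within counting error of the reported value and 30 moved beyond it. *Ltbp2* ranged from 1.81 to 2.51 (higher in 14 of 14), *Ltbp4* from 0.18 to 1.26 and *Tgfbr2* from −0.66 to −0.05 (same direction in 15 of 15 each), while *Tgfb1*, from −0.70 to 0.27, kept its direction in 12 of 15, as did *Tgfb2*, from −2.60 in female cells to 0.29 in matched sub-clusters. *Tgfb3* turned to −0.26 and *Tgfbr1* to −0.18 in matched sub-clusters, and *Ltbp1* turned to 0.57 in female cells. The added settings, chosen after seeing the data, were those without the *Hmox1*-led sub-clusters and with the 53 control cells of 1 mixed sub-cluster kept.

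Of the 10 genes, 1 was at least 1.5-fold higher in fibroblasts, and 2 were with Scrublet doublets removed, Leiden clustering, mean per-cell CPM, centring on the median of all genes or without *Hmox1*-led sub-clusters, and 3 with K = 12, where a cluster that was mostly *SM22-SmoM2* fibroblasts took the keratinocyte name and fewer fibroblasts were left. The count lower, 1, was 0 with Scrublet doublets removed, K = 12, K = 30, centring, matched sub-clusters or the mixed sub-cluster kept, 2 with Leiden clustering and 4 in female cells, of which *SM22-SmoM2* had 48. Pathway genes higher numbered 8 with K = 12 or in female cells, 3 past 2-fold and 6 without *Hmox1*-led sub-clusters, and 13 were lower past 2-fold. In endothelial, Schwann and muscle cells together the count higher, 1, was 2 with Leiden clustering, K = 30, list genes kept or centring, 3 in male cells, and 0 with per-cell means or in female cells. The count lower, 8, was 5 with K = 12, centring or in female cells, and 4 after thinning or in male cells. For Hh-active-like over other cells, the count higher (4) was 0 in female cells, and the count lower (2) was 0 in female cells and 1 without the mitochondrial filter, with K = 12 or without *Hmox1*-led sub-clusters. The ratio turned for *Tgfb1* (−0.30) and *Tgfb2* (−1.95, from 0.51) without *Hmox1*-led sub-clusters and for *Tgfbr2* (0.26) in female cells, and those of *Tgfbr1* (0.11) and *Ltbp3* (−0.12), near 0, ranged from −0.16 to 0.12 and from −0.28 to 0.17. The cause of these shifts was not tested. Shares of all genes were taken under the main setting alone, so the counts under other settings have no background to be read against.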

Other observations

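Beyond fibroblasts, the *Ltbp4* level also differed among endothelial clusters of the control library. It had 380 CPM in the cluster led by *Cldn5*, *Egfl7* and *Esam*, with *Rbp7* and *Gpihbp1* of capillaries also among its leading genes, and 202 to 212 CPM in the other 3. *Tgfbr2* was highest in the same cluster, at 266 CPM against 97.3 to 141 CPM, and *Tgfb1* was not, at 136 CPM against 169 to 187 CPM. In the *SM22-SmoM2* library that cluster again had the highest *Ltbp4* (223 CPM) and *Tgfbr2* (178 CPM) of the 4, from 45 cells. Among the 4 Schwann clusters all 11 control and all 8 *SM22-SmoM2* UMIs of *Ltbp2* lay in the one led by *Sostdc1*, which held 236 control and 100 *SM22-SmoM2* cells.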
